A study of Mus musculus with 4 samples.

Results

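Shox2-positive palatal-type mesenchyme was examined in mouse noses taken whole at embryonic day 14.5 and profiled by droplet single-cell RNA sequencing. The cells were selected on measured values, by the following rule. A cell had 500 genes or more, mitochondrial UMIs of no more than 10%, at least 3 UMIs in sum of the collagen genes Col1a1, Col1a2 and Col3a1, and at least 1 UMI of Shox2. It also had a UMI of at least 1 of Pax9, Osr2 and Foxf1, and none of Osr1, Foxl2, Agtr2, Pou3f4, Sp7, Epcam and Cdh5. UMIs are random barcodes, 1 for each transcript molecule caught, so that copies made by PCR are counted once. The rule found 589 cells among 13739 retained cells and 15863 barcodes. Of these, 191 came from control 1, 97 from control 2, 134 from mutant 1 and 167 from mutant 2.

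The 4 libraries fall into 2 controls and 2 mutants by their titles. Mutants carry a Cre recombinase under Sox10 regulation, the transgene Tg(Sox10-cre)1Wdr, on a C57Bl/6J background, and in them Taz is floxed on both alleles and Yap on 1 of its 2. The sample labels give the controls as C57Bl/6J, whereas the series design gives them as Cre-free animals with both alleles of Yap and of Taz floxed, and this disagreement was not resolved. One Yap allele therefore stays intact in every mutant cell, and Sox10-driven recombination acts in neural crest and its descendants. The protocol gives 2 noses per genotype. They were dissociated with papain and collagenase, and the cells were frozen before loading. The labels name 2 sequencing providers but not which library went to which, so provider and genotype cannot be told apart.

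Shox2 encodes a short stature homeobox factor. In the developing palate it marks the anterior mesenchyme of the palatal shelves and is needed for growth of the bony hard palate. Osr2 and Pax9 are transcription factors of palatal mesenchyme, and Foxf1 is a forkhead factor that responds to Sonic hedgehog from the neighbouring epithelium. Yap1 and Wwtr1 (Taz) are coactivators at the end of the Hippo kinase pathway and act through Tead factors.

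Depth allowed sums rather than single cells to be compared. The libraries held between 20170229 and 35887490 UMIs, and the Shox2-positive cells held 1354375, 649639, 1230418 and 1027586 UMIs in control 1, control 2, mutant 1 and mutant 2. Their median depth was 6506, 6364, 8085 and 5443 UMIs per cell in the same order, which is also the order of all values below given per library. Levels are UMI counts scaled to the same total (CPM) over the summed cells. Between 4 and 8 barcodes occurred in both libraries of a pair, and 0 of them belonged to Shox2-positive cells. Control 2 stood apart in 1 respect: 24.7% of its Shox2-positive cells had no Xist UMI, against 1.57%, 0.75% and 0.6% in control 1, mutant 1 and mutant 2. The labels do not say whether the libraries came from separate litters, so p-values refer to these libraries alone. For mutants against controls they measure the spread between libraries. Where library was a block, they measure how differences within a library vary from library to library.

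Members were chosen by their Shox2, Pax9, Osr2 and Foxf1 UMIs, so the levels of these genes are a description. Shox2 (chromosome 3, 66971727 to 66981771 on GRCm38, minus strand) stood at 320, 366, 286 and 329 CPM. Exactly 1 Shox2 UMI was found in 290 of the 589 cells (49.2%), 2 UMIs in 129 and 3 or more in 170, up to 15. Osr2 stood at 219, 302, 181 and 220 CPM, Pax9 at 106, 112, 154 and 143 CPM, and Foxf1 at 65.7, 33.9, 73.1 and 47.7 CPM. Osr2 alone of the 3 was detected in 317 cells (53.8%), Pax9 with Osr2 in 79, Pax9 alone in 66 and Foxf1 alone in 45, and all 3 in 38. Foxf1 was detected in 24.1%, 12.4%, 30.6% and 16.8% of the Shox2-positive cells, so both groups contain a high and a low library.

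Cells close to the limits of the rule were few for the collagens and many for the other genes. The collagen sum was exactly 3 in 4 selected cells, and 4 cells missed the rule with a sum of 2. A UMI of an excluded gene removed 956 cells that met the rest, among them 601 with Osr1 and 394 with Agtr2. Another 470 collagen-positive cells had Shox2 but none of Pax9, Osr2 and Foxf1. In 205 macrophage-type cells, which should lack Shox2, 1 cell had a Shox2 UMI (0.488%, median depth 8764 UMIs), against 22.9% of collagen-positive cells without Epcam or Cdh5 (median depth 6528 UMIs). Osr2 was found in 2 of those macrophage-type cells and Pax9 and Foxf1 in 0, which allows a share of up to 1.46%. Intervals and limits here cover counting error only.

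**Figure D1:**
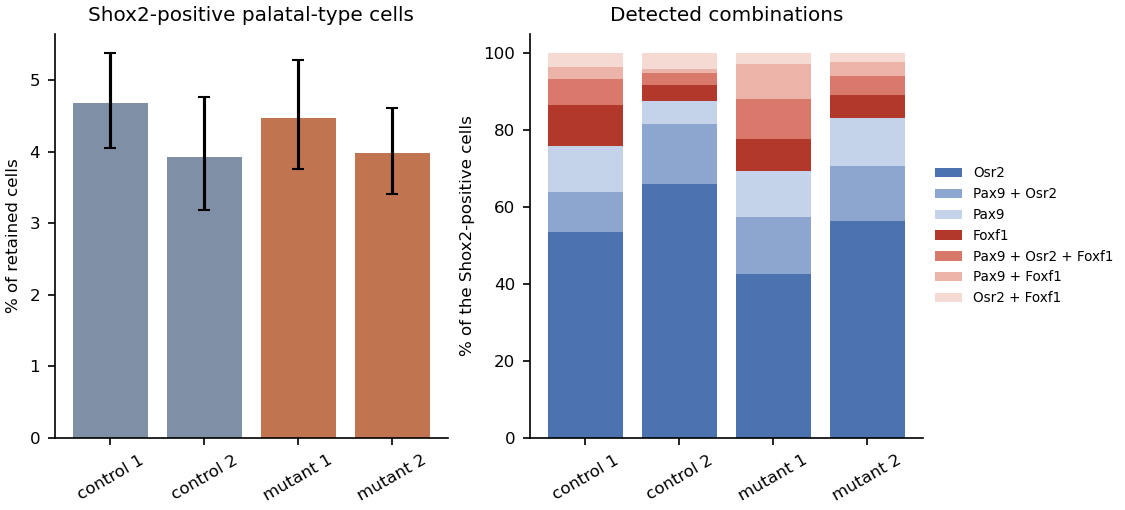
Left, the percent of retained cells that met the rule in each library, with exact 95% binomial intervals as bars. Right, the percent of the Shox2-positive cells with each detected combination of Pax9, Osr2 and Foxf1; Osr2 without the other 2 is the most frequent combination in all 4 libraries, and the red shades, with Foxf1, are widest in mutant 1 (30.6%) and narrowest in control 2 (12.4%).

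The name of the population was checked on genes that the rule did not read. Anterior palate genes were present, among them Msx1 at 91.6, 86.2, 160 and 91.5 CPM and Bmp4 at 54.6, 46.2, 90.2 and 68.1 CPM. The 10 genes of this list summed to 569, 634, 736 and 765 CPM. Depth-matched Shox2-negative palatal-type cells, described below, had 634, 562, 532 and 549 CPM, and other mesenchyme 319, 319, 436 and 420 CPM. The list's median log2 difference was 0.01 against the former and 0.675 against the latter. Presence of these genes alone therefore does not set the Shox2-positive cells apart. Of 5 posterior palate genes, Meox2 was between 1.54 and 8.12 CPM and Tbx22 between 5.69 and 6.81 CPM, but Mn1 was between 46.7 and 55.4 CPM, Efnb2 between 36.2 and 66.2 CPM and Barx1 at 77.5, 27.7, 185 and 60.3 CPM. These 5 genes summed to between 157 and 286 CPM, so the levels do not place the cells in the anterior palate alone. Lists of other cell types ranged from low to moderate. The 9 epithelial markers summed to between 9.24 and 26.6 CPM, the 8 endothelial markers to between 13.6 and 35.4 CPM, the 7 macrophage markers to between 6.5 and 45.8 CPM and the 6 glia markers to between 4.62 and 13.0 CPM. Myod1 and Foxd3 had 0 UMIs in all 4 libraries. Higher sums were found for the 6 neuron markers, at 264, 231, 174 and 195 CPM, mostly from Stmn2 and Gap43, while Tubb3 was between 3.89 and 13.9 CPM. The 7 mural markers summed to 73.1, 135, 167 and 67.2 CPM. Bone genes (9, led by Mef2c and Runx2) summed to between 448 and 773 CPM and cartilage genes (10, led by Col11a1) to between 408 and 623 CPM. The part of such transcripts in the results was not tested, apart from the alternative without cells that carry them. The files do not record the position of a cell in the nose, so the palatal name rests on gene levels alone.

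The share of Shox2-positive cells overlapped between the groups. They made up 4.69% (95% interval 4.06 to 5.38), 3.92% (3.19 to 4.76), 4.47% (3.76 to 5.28) and 3.98% (3.41 to 4.62) of retained cells. The values of the groups overlap, with a mean of 4.304% ± 0.54 (SD, n = 2) in controls and 4.23% ± 0.35 (SD, n = 2) in mutants, and an exact two-sided permutation test gave p = 1.0. With 2 libraries against 2, that test cannot go below 0.33. Membership rests on single UMIs and depth differed between libraries. With every cell thinned to 3000 UMIs before the rule was applied, the shares were 3.44%, 2.87%, 2.51% and 3.09%, and mutant 1 went from the second highest to the lowest. The means were then 3.15% ± 0.41 (SD, n = 2) in controls and 2.80% ± 0.41 (SD, n = 2) in mutants, with an exact two-sided permutation p of 0.67. The sign of the unthinned difference of -0.08 percentage points turned when control 1 or mutant 2 was left out, to 0.31 and 0.17.

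Cycling cells were counted after thinning each cell to 3000 UMIs, as cells with at least 2 of 18 genes of DNA replication and mitosis such as Mki67, Top2a and Pcna. The share was 37.3%, 27.4%, 33.8% and 39.5% of 185, 95, 133 and 157 Shox2-positive cells deep enough, and 19 shallower cells were left out. Control 1 lies between the mutants and control 2 is the lowest. The means were 32.3% ± 7.02 (SD, n = 2) in controls and 36.7% ± 4.00 (SD, n = 2) in mutants, with an exact two-sided permutation p of 0.67, and without control 2 the difference was -0.63 percentage points. Shox2-negative palatal-type cells had 33.8%, 30.7%, 32.1% and 28.8%. Without thinning the shares of Shox2-positive cells averaged 46.5% in controls and 53.7% in mutants.

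Shox2-positive cells were next compared with cells that met every other part of the rule but had no Shox2 UMI, taking for each the Shox2-negative cell of its library nearest in depth. This asks what goes with Shox2 within palatal-type mesenchyme. The LIM homeobox gene Lhx8, the neuregulin Nrg3, the matrix gene Tnc and the glypican Gpc3 were higher with Shox2. The homeobox genes Barx1 and Gsc, Pax3 and the zinc finger gene Mecom were lower. In edgeR's quasi-likelihood test with Benjamini-Hochberg adjustment, 94 of 9745 genes passed an adjusted p of 0.05 (0.965%), 52 higher and 42 lower. DESeq2 called 19, all of them among the 94. With a minimum of 2 Shox2 UMIs for the Shox2-positive cells, 63 genes were called, 46 of them among the 94 (48.9% of these). Of the 94 genes, 85 had a value in that alternative, and all 85 kept their direction.

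Lhx8, a factor of palatal and dental mesenchyme, stood at 48.7, 73.9, 89.4 and 59.4 CPM with Shox2 and at 21.5, 18.5, 35.8 and 22.5 CPM without. Every Shox2-positive sum was above every Shox2-negative sum, and the log2 difference was 1.39 ± 0.17 (SE, n = 4 libraries, adjusted p = 0.000212). Nrg3, a ligand of the ErbB4 receptor, stood at 99.7, 126, 184 and 134 CPM against 52.0, 63.2, 38.3 and 70.3 CPM (log2 1.29 ± 0.17, adjusted p = 0.000652). Its sums did not overlap either. Gpc3, a cell-surface proteoglycan, had the smallest adjusted p, with 799, 1202, 905 and 881 CPM against 540, 730, 413 and 422 CPM (log2 0.85 ± 0.07, adjusted p = 4.02e-06). It is named outside the naming rule, having been chosen after its values were seen. Tnc, which encodes tenascin C, stood at 107, 119, 167 and 154 CPM against 51.2, 98.6, 61.6 and 54.7 CPM (log2 1.10 ± 0.15, adjusted p = 0.000932).

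The other genes named as higher were Galnt13, Chodl, Gabrg3, Tll1, Ppp2r2b, Tbx18, Gm14582, Rorb and Cdh8, with log2 differences between 1.07 and 1.87. Galnt13, a glycosyltransferase gene, led by size, but its value rested on control 1, where it stood at 96.7 CPM against 11.9. Without that library its log2 difference fell to 1.19 and did not pass. Tbx18, Gm14582, Rorb and Cdh8 each lost their call when mutant 2 was left out. Tbx18, Gm14582 and Cdh8 also lost it without control 2, Rorb without mutant 1 and Cdh8 without control 1.

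Among the genes that were lower, Mecom stood at 19.9, 18.5, 19.5 and 12.7 CPM with Shox2 and at 69.8, 131, 38.3 and 81.1 CPM without (log2 -2.03 ± 0.22, adjusted p = 0.000119). Barx1, a homeobox gene of posterior palate and tooth-forming mesenchyme, stood at 77.5, 27.7, 185 and 60.3 CPM against 200, 120, 240 and 120 CPM (log2 -1.00 ± 0.16, adjusted p = 0.00316). Within each library Barx1 was lower with Shox2, although mutant 1 with Shox2 exceeds control 2 without. Pax3, a paired box gene of neural crest and muscle precursors, stood at 66.5, 53.9, 69.9 and 109 CPM against 187, 61.6, 172 and 163 CPM (log2 -1.02 ± 0.15, adjusted p = 0.00106). Bmper and Gdf10, which act on or belong to the BMP and TGF-beta families, were lower by log2 -1.47 ± 0.22 and -1.25 ± 0.21. Sorbs2, Scube1, Dok6, Stard13 and Foxc1 were lower by log2 values from -1.77 to -1.03. Scube1, Dok6, Stard13 and Foxc1 lost their call when control 2 or mutant 2 was left out, Dok6 and Stard13 also without control 1, and Dok6 without mutant 1. Leaving out mutant 2 brought the count of calls from 94 to 49.

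Of 7 tested cartilage genes 4 were lower with Shox2, and of 4 tested bone genes 1, Ibsp. Cells that carry such transcripts were unequally spread. At least 3 UMIs of 5 cartilage genes were found in 1.02% of Shox2-positive and 3.10% of all Shox2-negative palatal-type cells, and at least 3 UMIs of 5 bone genes in 0.849% and 1.93%. The sialoprotein gene Ibsp stood at 14.0, 1.54, 4.06 and 5.84 CPM against 46.0, 1.54, 10.0 and 195 CPM (log2 -3.01 ± 0.39), and without mutant 2 the value was -1.55 and did not pass. The 4 cartilage genes were Col2a1, Col9a1, Cnmd and Sox9, and the list's median log2 difference was -1.07 against -0.27 for the bone genes and -0.0022 over all genes. Col2a1 lost its call without mutant 2, Cnmd without control 1, Sox9 without control 1 or control 2, and Col9a1 without any of these 3 libraries. With cells carrying transcripts of bone, cartilage, glia, mural cells, muscle or macrophages left out of both classes, which takes out cartilage and bone UMIs by construction, 80 genes were called, of which 62 were among the 94 (66.0% of these). Of the genes named in this comparison, 11 no longer passed: Col2a1 (log2 -0.45), Sox9 (-0.34), Sorbs2 (-1.06), Bmper (-0.77), Dok6, Stard13, Foxc1, Rspo2, Rorb, Twist1 and Zfhx4.

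**Figure D2:**
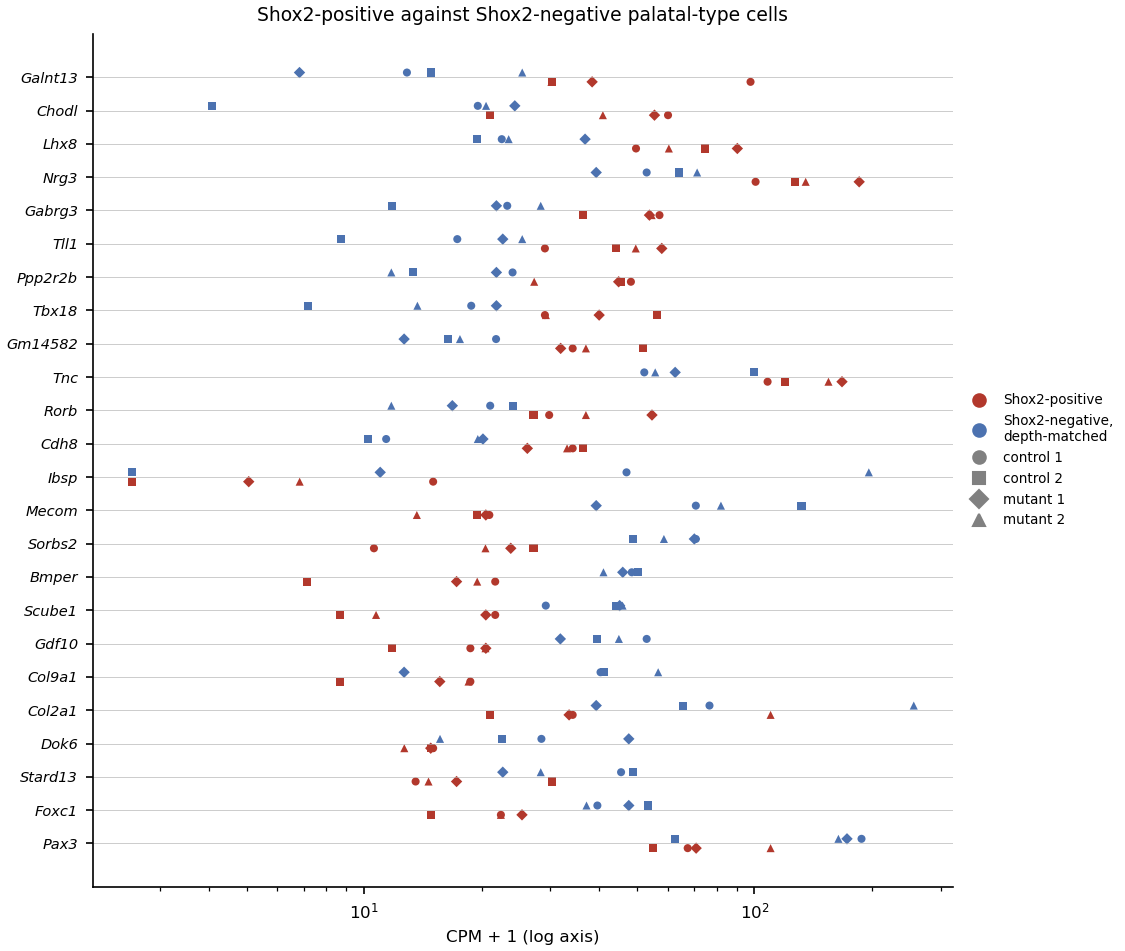
Levels (CPM + 1, log axis) of the 24 named genes in Shox2-positive cells (red) and depth-matched Shox2-negative palatal-type cells (blue), 1 symbol per library. By the fitted difference the upper 12 genes were higher and the lower 12 lower in Shox2-positive cells. The symbols of the classes overlap for some genes, such as Pax3 and Ibsp, and Ibsp spreads widely among the Shox2-negative sums.

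Gene lists of palate and signalling biology showed few calls in this comparison. Barx1 was the 1 call among 3 posterior palate genes, and Gsc (log2 -0.99 ± 0.17) the 1 call among 5 genes of the oral or nasal side. Of 9 hedgehog genes Ptch1, the receptor and a target of the pathway, passed as higher, with 199, 236, 217 and 176 CPM compared to 145, 98.6, 183 and 111 CPM (log2 0.57 ± 0.12, adjusted p = 0.0195; not called without control 2 or mutant 2). The Wnt antagonist Dkk2 was higher (log2 0.81 ± 0.11) and the Wnt agonist Rspo2 lower (log2 -0.98 ± 0.20) among 14 Wnt genes. The facial mesenchyme factors Prrx1 (log2 0.41 ± 0.06), Twist1 (0.28 ± 0.06), Zfhx4 (0.38 ± 0.09) and Lhx8 passed among 18, all as higher. Rspo2 and Twist1 were not called without mutant 1 or mutant 2, and Zfhx4 not without control 1, control 2 or mutant 2. None of 12 BMP, 9 FGF, 19 YAP and TAZ target, 13 Hippo and 18 proliferation genes passed by edgeR or DESeq2, with 3, 0, 3, 2 and 4 at an unadjusted p under 0.05 in edgeR.

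Against depth-matched mesenchyme without Shox2, Pax9, Osr2, Foxf1 and Sp7, 264 of 9839 genes passed (2.68%), 142 higher and 122 lower, and DESeq2 called 112. This other mesenchyme could carry Osr1, Foxl2, Agtr2 and Pou3f4, which the rule excludes from the Shox2-positive cells. The part of that exclusion in the differences was not tested. The Wnt antagonist Frzb, the homeobox gene Lhx8 and the zinc finger gene Gata2 were higher in the Shox2-positive cells. Frzb stood at 36.2, 30.8, 41.4 and 42.8 CPM against 5.91, 1.54, 4.07 and 4.86 CPM (log2 3.06 ± 0.28, adjusted p = 4.55e-05). Lhx8 stood at 6.65, 10.8, 13.0 and 16.5 CPM in the other mesenchyme (log2 2.49 ± 0.21, adjusted p = 2.93e-05). Gata2 stood there at 7.39, 13.8, 7.32 and 7.77 CPM against 36.2, 40.0, 57.7 and 40.9 CPM with Shox2 (log2 2.31 ± 0.25). None of these 3 genes overlapped between the classes. Zmat4, Gabrb1, Tll1, Gabrg3, Nkain3, Epha6, 9130024F11Rik and Nrg3 were the other named genes, at log2 differences from 1.86 to 2.73, and these 8, like Frzb, Lhx8 and Gata2, kept their call with any 1 library left out.

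Further genes of the lists were higher than in other mesenchyme. Inhba, an activin subunit of the anterior palate, was higher by log2 1.17 ± 0.16, and the forkhead gene Foxf2, a relative of Foxf1, by 2.63 ± 0.41. Sfrp2 (0.70 ± 0.10) and Rspo1 (1.00 ± 0.16), both modulators of Wnt signals, passed among 15 Wnt genes. Of the facial mesenchyme factors Twist1 (0.74 ± 0.07) and Prrx1 (0.50 ± 0.08) were higher and Zfhx3 (-1.07 ± 0.12) was lower. Bmp5, a BMP ligand, was lower by -1.50 ± 0.23 and the FGF receptor Fgfr2 by -0.47 ± 0.09, which was not called without control 1 or control 2. The Hippo kinase gene Stk3 (0.69 ± 0.10) and the Yap partner Tead1 (0.39 ± 0.09) were higher, and Tead1 lost its call without control 1, control 2 or mutant 2. None of 19 YAP and TAZ target genes passed by edgeR or DESeq2, with 5 at an unadjusted p under 0.05 in edgeR.

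The 122 genes lower than in other mesenchyme included 7 of cartilage, 4 of mural cells and 1 of glia from the lists. Cartilage genes gave 7 calls of 9 tested, all lower, with a median of log2 -2.58 against -0.0058 over all genes. Col2a1 stood at 33.2, 20.01, 32.5 and 109 CPM against 520, 158, 328 and 185 CPM, and Sox6 at 22.2, 53.9, 91.0 and 38.0 CPM against 304, 235, 280 and 153 CPM. The pericyte gene Rgs5 and the glial gene Fabp7 were lower too, Fabp7 reaching 111 CPM in the other mesenchyme of mutant 1. Cells with at least 3 cartilage UMIs made up 5.89% of all other mesenchyme against 1.02% of Shox2-positive cells, with 3.403% against 1.87% for mural and 1.76% against 0.17% for glia genes. Without such cells 241 genes were called, 136 higher and 105 lower and 181 of them among the 264, and the value for Hapln1, a cartilage link protein gene, went from log2 -2.50 to 0.04. Ebf2 and Sorcs1, named by the same rule, were lower by -2.44 ± 0.21 and -2.16 ± 0.31. Leaving out control 1 brought the count of calls to 160, and Matn1 and Acan did not pass without it.

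Among themselves the Shox2-positive cells were compared by Foxf1, the 1 split made within them. Foxf1 was detected in 46, 12, 41 and 28 cells and not in 145, 85, 93 and 139. Cells with Foxf1 had more of the bone regulator Runx2, the hedgehog receptor Ptch1, the palate genes Msx1 and Foxd1 and the posterior palate gene Barx1. Those without Foxf1 had more of the small proteoglycan genes Dcn and Lum and of the transcription factor genes Pax1, Twist2, Emx2, Tbx18 and Irx1. edgeR called 179 of 6941 genes (2.58%), 83 higher and 96 lower with Foxf1, and DESeq2 called 127, of which 112 were among the 179. These subsets were not matched on depth, and their medians over all libraries were 7077 UMIs with Foxf1 and 6262 without. By library the medians were 7147, 5161, 8084 and 5372.5 UMIs with Foxf1 and 6134, 6531, 8653 and 5443 UMIs without. Cells with Foxf1 were thus deeper in control 1 only. With subsets matched on depth, 121 genes were called, 103 of them among the 179. Shox2 itself was at 326 CPM with Foxf1 and 318 CPM without, over all libraries. By the rule every cell without Foxf1 had Pax9 or Osr2, and Osr2 was detected in 44.9% of cells with Foxf1 and 85.7% of those without. Restricted to the 82 Foxf1 cells that also had Pax9 or Osr2, 139 genes were called, 116 of them among the 179.

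Fendrr, a long non-coding RNA gene, had the largest log2 difference of the 12 genes named as higher. It lies on chromosome 8 from 121054882 to 121083110 (GRCm38, minus strand), and its start is 1276 bases from that of Foxf1, which is read in the opposite direction from 121084386. It stood at 50.2, 103, 92.2 and 35.2 CPM with Foxf1 and at 4.92, 1.72, 4.64 and 3.62 CPM without (log2 3.93 ± 0.42, adjusted p = 0.000603). The subsets did not overlap. Its promoter window from RefSeq (GRCm38.p6, chr8:121083061-121083360, minus strand, 250 bases before and 50 from the start) is shown because Fendrr led these genes and neighbours Foxf1. Capitals mark the 1 match to the forkhead core motif GTAAACA, searched on both strands.

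Fendrr promoter: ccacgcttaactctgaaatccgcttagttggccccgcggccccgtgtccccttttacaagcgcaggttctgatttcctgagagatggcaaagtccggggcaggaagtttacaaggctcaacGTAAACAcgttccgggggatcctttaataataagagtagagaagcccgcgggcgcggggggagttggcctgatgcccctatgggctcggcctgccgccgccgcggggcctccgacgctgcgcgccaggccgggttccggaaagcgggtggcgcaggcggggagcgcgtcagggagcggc

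The motif begins at base 122 of the window. Of 32851 such windows, 1199 (3.65%) hold it on either strand. Of the 12 genes named as higher with Foxf1, 10 had a window in the table, and Fendrr's was the 1 with the motif. A match is a description of the letters and not a measured binding site.

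Bone and hedgehog genes separated the Foxf1 subsets. Runx2, the master regulator of osteoblasts (chromosome 17, 44495987 to 44814797, minus strand), stood at 497, 499.8, 581 and 317 CPM with Foxf1 and at 95.5, 68.8, 135 and 181 CPM without (log2 1.96 ± 0.25, adjusted p = 0.00134). The alkaline phosphatase gene Alpl also passed, with 97.5, 44.1, 100.4 and 65.4 CPM compared to 17.7, 17.2, 23.2 and 35.0 CPM (log2 1.79 ± 0.30, adjusted p = 0.00625; not called without control 1). Mef2c, the third tested bone gene, was lower (log2 -1.05 ± 0.18; not called without mutant 2). Ptch1 stood at 387, 603, 366 and 307 CPM against 136, 193, 153 and 145 CPM (log2 1.35 ± 0.14, adjusted p = 0.000603), with no overlap. The hedgehog coreceptor genes Cdon (log2 -1.92 ± 0.22) and Gas1 (-0.56 ± 0.13) were lower, and Gas1 lost its call with any 1 library left out. These were the 3 calls among 8 tested hedgehog genes.

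Palate and head transcription factors followed the split in both directions. Msx1, an anterior palate factor upstream of Bmp4, stood at 225, 235, 282 and 141 CPM with Foxf1 against 47.2, 68.8, 108 and 79.6 CPM (log2 1.53 ± 0.22, adjusted p = 0.00289). Foxd1 was higher by 1.58 ± 0.23 and Foxf2 by 2.02 ± 0.31. Barx1 was higher too (log2 1.12), the 1 call among 3 tested posterior palate genes. It was not called without control 1 or mutant 1, and DESeq2 called 0 of these genes. Zfhx3 (log2 -1.26) and the neuron marker Stmn2 (-1.95) were lower, and Stmn2 was not called without control 1, control 2 or mutant 1. Foxf2, Foxd1 and Dlx5 were all 3 tested genes of the oral or nasal side, and Dlx5 lost its call with any 1 library left out. Eya1 (1.301 ± 0.19), Eya4 (1.73 ± 0.23) and Six2 (1.66 ± 0.27), factors of a shared head developmental network, passed as higher, as did Lhx8 (1.06 ± 0.21). Lhx8 was not called without mutant 1 or without mutant 2. Other genes named as higher were 1700018A04Rik, Gm42884, Pappa2, Gm32004, Lrriq1, Pde1a, Ppp2r2b, Mecom and Cntn6, at log2 2.09 to 3.27. Cntn6 was high in control 1 (213 CPM) and mutant 1 (138 CPM) and at 14.7 and 15.1 CPM in the others, and without control 1 its log2 difference was 1.20. Of the 24 named genes 14 kept their call with any 1 library left out. Foxf2, Gm32004, Pde1a, Mecom, Cntn6, 2600014E21Rik, Emx2, Gata2, Irx1 and Plxna4 lost it without control 1, Cntn6 and Irx1 also without mutant 2, and 2600014E21Rik and Gata2 also without mutant 1.

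Pax1, a paired box gene, had 0 UMIs in all 127 cells with Foxf1 and 199 UMIs in the cells without, at 52.2, 55.0, 51.1 and 84.5 CPM. Against a floor of 3 counts over all cells with Foxf1, it was at least 19.6-fold lower there. Twist2 stood at 32.5, 0, 32.6 and 90.5 CPM with Foxf1 and at 249, 344, 229 and 287 CPM without (log2 -2.64 ± 0.30, adjusted p = 0.000756). Emx2 had 3 UMIs in cells with Foxf1, all in mutant 2, against 133 in the others. The proteoglycan gene Dcn stood at 103, 14.7, 163 and 171 CPM against 811, 617, 572 and 773 CPM (log2 -2.47 ± 0.24, adjusted p = 0.000367). Lum (-1.16 ± 0.19; not called without mutant 2) and Col14a1 (-1.96 ± 0.27) were lower and Postn, which encodes periostin, was higher (1.03 ± 0.18; not called without control 1) among 18 matrix genes. Nrxn3, a synaptic adhesion gene, stood at 0, 0, 5.43 and 75.4 CPM against 298, 141, 229 and 430 CPM (log2 -4.08 ± 0.47), and without mutant 2 the log2 difference was -6.49. The remaining named genes, 2600014E21Rik, Gata2, Tbx18, Irx1, Glis3, Plxna4, Il1rapl2 and Cacna2d3, were lower by -3.47 to -2.71.

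Genes of dissociation stress moved with the same split. Of 13 tested, Fos (0.54 ± 0.12), Jun (0.64 ± 0.13), Junb (1.36 ± 0.20) and Ier2 (0.91 ± 0.17) were higher with Foxf1 and none was lower, with a list median of log2 0.52 against -0.0068 over all genes. Of these, Junb kept its call with any 1 library left out. Their part in the other differences was not tested. Among Wnt genes, Dkk1 (-2.48 ± 0.47) and Lef1 (-1.11 ± 0.21) were lower, both not called without control 1 or mutant 2 and Lef1 not without mutant 1, and among 14 YAP and TAZ targets Ccn1 was higher (0.66 ± 0.15), although it lost its call with any 1 library left out. None of 10 BMP, 5 FGF and 18 proliferation genes passed by edgeR or DESeq2, with 2, 0 and 2 at an unadjusted p under 0.05 in edgeR. Leaving out control 1 brought the count of calls from 179 to 94 and leaving out mutant 2 brought it to 109.

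**Figure D3:**
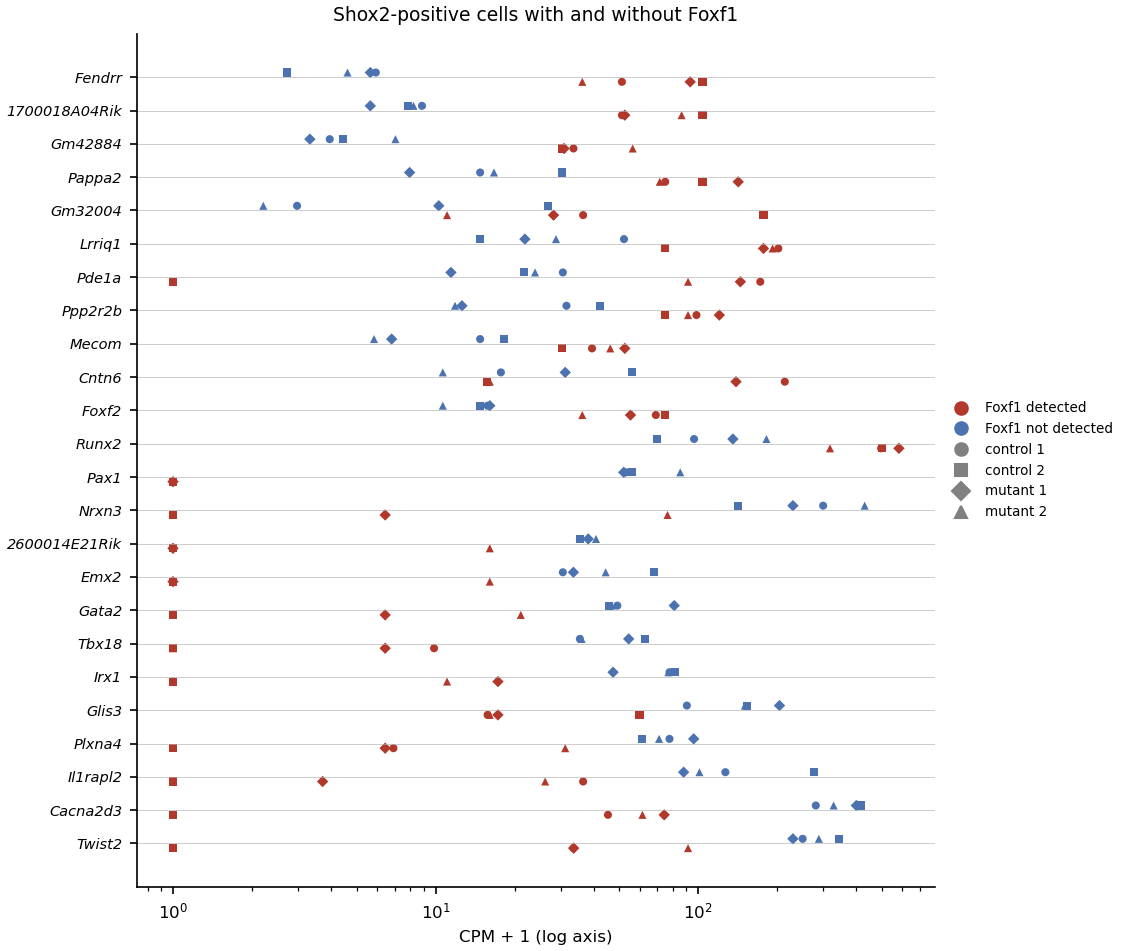
Levels (CPM + 1, log axis) of the 24 named genes in Shox2-positive cells with Foxf1 (red) and without (blue), 1 symbol per library. Fendrr and Runx2 separate fully to the right and Cacna2d3 and Twist2 to the left; control 2, with 12 cells in the Foxf1 subset, gives several values at 0.

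The same split was then made in separate cells, the Shox2-negative palatal-type cells, 233 with Foxf1 and 1219 without. This comparison was added after the result in the Shox2-positive cells had been seen. It called 517 of 9759 genes (5.3%), 242 higher and 275 lower, and DESeq2 called 313. Of the 179 genes called with Shox2, 129 were called here too, all in the same direction, which is 72.1% of the first list and 25.0% of the second. Both sets of cells came from the same 4 libraries, and by the rule all their cells without Foxf1 had Pax9 or Osr2. The part of this in the overlap was not tested, and the Shox2-negative subsets were not matched on depth. Runx2 stood at 840, 751, 806 and 530 CPM with Foxf1 against 152, 95.7, 125 and 134 CPM (log2 2.52 ± 0.14), and Ptch1 differed by 1.19 ± 0.14. Dcn (-3.44 ± 0.18) and Twist2 (-3.17 ± 0.20) were lower. Of 14 tested genes of dissociation stress, 6 were higher with Foxf1 here too (Fos, Fosb, Jun, Junb, Egr1 and Ier2) and 0 lower. Their list median was log2 0.47, and their part in the other differences was not tested. Cartilage genes were higher with Foxf1 in these Shox2-negative cells for 9 of 9 tested, at a median of log2 2.26 against 0.0032 over all genes, whereas Col11a1 was the 1 call of 5 in the Shox2-positive cells (not called without control 1). Without control 1, 332 genes were called.

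A direct test of whether the split differed between Shox2-positive and Shox2-negative cells called 0 of 8584 genes by edgeR (0%), while 382 reached an unadjusted p below 0.05, and DESeq2 called 1. This does not show that the split was the same. Of the 24 genes named above 23 were tested in the Shox2-negative cells, and 19 were called in the same direction. Mecom was one of the 4 that were not: it was higher with Foxf1 among Shox2-positive cells (log2 2.14 ± 0.43, adjusted p = 0.0189; not called without control 1, mutant 1 or mutant 2) and stood at log2 -0.19 ± 0.27 among Shox2-negative cells. The difference of 2.32 ± 0.60 had an unadjusted p of 0.00113 and an adjusted p of 0.565, so it did not pass.

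**Figure D4:**
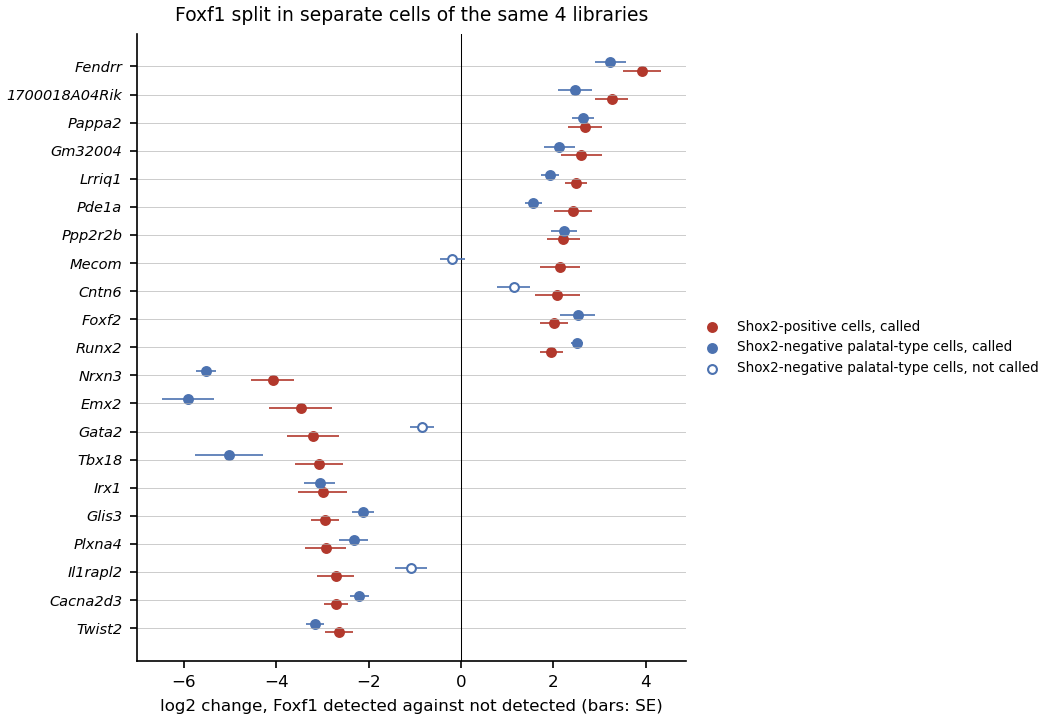
Log2 change between cells with and without Foxf1 (x axis, bars are SE, n = 4 libraries) for 21 of the 24 named genes, in Shox2-positive cells (red) and in Shox2-negative palatal-type cells (blue; open symbols did not pass). Pax1 and 2600014E21Rik, with 0 UMIs in a whole subset, and Gm42884, not tested in both, are left out; the blue symbols lie on the same side of 0 as the red ones for all genes but Mecom.

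The mutants were compared with the controls last, for the effect of the Sox10-driven loss. The targeted genes were examined first. Yap1 had control levels of 62.0 and 69.3 CPM and mutant levels of 43.1 and 57.4 CPM (log2 -0.42 ± 0.23, adjusted p = 1.0), and Wwtr1 at 140 and 151 against 149 and 170 CPM (log2 0.10 ± 0.18, adjusted p = 1.0). Both mutant values of Yap1 were below both control values, whereas Wwtr1 overlapped. The chemistry reads the 3-prime end of transcripts, so reads can remain after a floxed exon is removed and these levels do not check the recombination. No gene passed: edgeR called 0 of 10018 genes (0%), while 391 reached an unadjusted p below 0.05. DESeq2, which was run without edgeR's filter on low counts, also called 0.

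The genes with the smallest unadjusted p are given as not passing. The growth factor gene Nrg1 had control levels of 100.4 and 70.8 CPM and mutant levels of 224 and 184 CPM (log2 1.18 ± 0.22, adjusted p = 0.69). Tnn, which encodes tenascin N, stood at 10.3 and 6.16 against 30.1 and 36.0 CPM (log2 1.84 ± 0.36) and Zmat4 at 19.9 and 32.3 against 58.5 and 74.9 CPM (log2 1.39 ± 0.28). Eif3l stood at 90.1 and 90.8 against 176 and 172 CPM (log2 0.91 ± 0.18) and Polr2f at 186 and 186 against 376 and 322 CPM (log2 0.87 ± 0.18). On the lower side Pla2g6 stood at 22.2 and 29.2 against 6.5 and 1.95 CPM (log2 -2.51 ± 0.50). Eif3l, Polr2f and Pla2g6 all lie on chromosome 15, in a stretch from 79075179 to 79328390 (GRCm38) whose ends are set by Eif3l and Pla2g6 themselves. The stretch also holds Sox10 (79154908 to 79165240), the gene whose regulatory sequence drives the Cre. AY036118, Samd4, Ptx3 and Il1rapl1 had lower values in the mutants, at log2 -0.82, -0.82, -1.27 and -0.78. In all 10 genes both mutant libraries lay on one side of both controls. Selection by the smallest p favours such genes, so this separation is a description and no further evidence of a difference. The count of calls was 255 without control 1, 45 without control 2, 16 without mutant 1 and 27 without mutant 2, each with 1 library left alone in an arm and assumed to vary like the others.

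None of the gene lists held a call between mutants and controls by edgeR or DESeq2. The 20 tested YAP and TAZ targets had a median of log2 0.02 against 0.0001 over all genes, with 1 at an unadjusted p under 0.05. Of the targets, Rbms3 stood at 496 and 694 against 610 and 611 CPM, Asap1 at 207 and 231 against 220 and 232 CPM and Ccn1 at 202 and 226 against 197 and 182 CPM, with overlapping groups for Rbms3 and Asap1. The 10 anterior palate genes had a median of 0.39, with Msx1 at log2 0.47 ± 0.26 and Bmp4 at 0.60 ± 0.23, neither of which passed. Hedgehog genes had a median of -0.17 over 9 tested, BMP genes 0.11 over 12, Wnt genes -0.01 over 14, matrix genes -0.08 over 19 and proliferation genes 0.00 over 18. The 4 genes listed beside Sox10 had a median of 0.89, and the list leaves out Pla2g6, which went the other way (log2 -2.51). That list was chosen from earlier results of these libraries and is not independent evidence of its direction. Its summed level was 292 and 285 CPM in control and 584 and 520 CPM in mutant Shox2-positive cells. The depth-matched Shox2-negative palatal-type cells had 318 and 270 against 557 and 533 CPM. Other mesenchyme had 300 and 257 against 564 and 557 CPM, so this difference was not particular to the Shox2-positive cells.

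**Figure D5:**
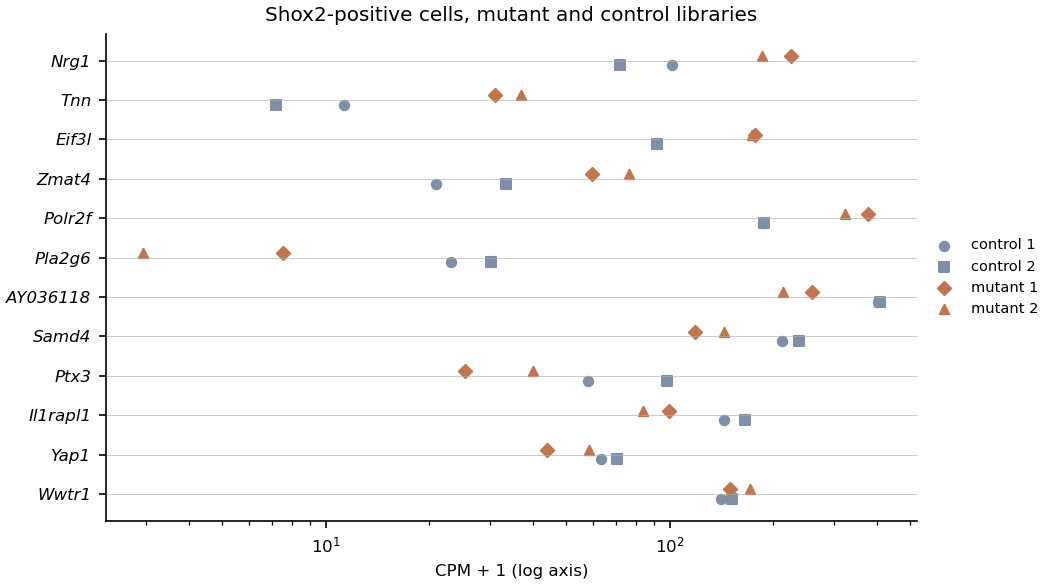
Levels (CPM + 1, log axis) in Shox2-positive cells of the 10 genes with the smallest unadjusted p and of Yap1 and Wwtr1, by library (grey, control; orange, mutant). For the 10 genes the orange symbols lie on one side of the grey ones, which their selection by p favours, and none passed the adjusted threshold.

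Whether the mutant effect differed between Shox2-positive and Shox2-negative palatal-type cells was tested as an interaction on the depth-matched sums. It called 4 of 10540 genes (0.038%), Cntn6, Galntl6, Runx2 and Pcdh15, each with an adjusted p of 0.0312, and DESeq2 called 0. With control 1, control 2, mutant 1 or mutant 2 left out the count was 37, 17, 18 or 35. Runx2 stood at 196 and 114 CPM in control and 268 and 207 CPM in mutant Shox2-positive cells, and at 312 and 199 against 232 and 151 CPM in Shox2-negative cells. Its interaction was log2 1.03 ± 0.18, and the groups of libraries do not overlap in the Shox2-positive cells but do in the Shox2-negative ones. As given above, Runx2 followed Foxf1, which was detected in 24.1% and 12.4% of control and 30.6% and 16.8% of mutant Shox2-positive cells, and its part in this result was not tested. With cells of very high UMI count left out no gene was called, and without the cells that carry transcripts of other types Runx2 had an adjusted p of 0.124.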

How the data were processed

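UMI counts per gene and barcode were deposited by the authors as matrices of 2827 to 4846 barcodes per library, and the counts are whole numbers that were not normalized; per the file headers they were made with Cell Ranger 8.0.1, whereas the submitters' processing notes name Cell Ranger 4, Seurat 4.3.0 and build mm10. The members and gene lists were chosen with earlier results of these data known. Cells were classed by the rule; no doublet caller was run, and an alternative left out cells above the 98th percentile of UMIs. For each class, the cells of a library were added up to 1 sum per gene. These sums went into the quasi-likelihood test of edgeR 4.0.16 in R 4.3.3, after filterByExpr and with TMM factors, and DESeq2 1.42.0 was an alternative. The genes of the rule were left out of every test. Class comparisons had library as a block, p-values were adjusted over all genes tested, and a call is an adjusted p under 0.05. SE is the log2 change over the square root of F. On simulated counts with 200 changed genes, the mutant comparison over 10035 genes recovered 72 of 100 changed 2-fold and 100 of 100 changed 4-fold. The changed genes were drawn from those of higher level, and every gene was given the same dispersion. Recovery of genes at low levels or of larger spread was therefore not measured.

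Named genes were, for mutants, the 10 called with the smallest adjusted p per direction or, with fewer than 5 called, the 5 with the smallest unadjusted p; for classes and Foxf1 subsets, the 12 called per direction with the largest change at a mean of at least 20 CPM; and in each list every call, or otherwise up to 4 of the highest level. Positions are GENCODE M21 on GRCm38. Same-numbered libraries did not deviate together (r = 0.04 over 10018 genes), so replicate numbers were not used as pairs. Some genes are not reported here. Alternatives are given in the closing section.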

Additional observations from a re-analysis of the deposited data

Results flagged for a closer look

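The mutant effect differed between Shox2-positive and Shox2-negative palatal-type cells for 4 genes by the test of the difference itself (edgeR, adjusted p = 0.0312 for each). Cntn6, a neural adhesion gene, had a difference of log2 -2.74: it stood at 65.7 and 50.8 CPM in control and 62.6 and 10.7 CPM in mutant Shox2-positive cells, and at 8.91 and 4.62 against 46.7 and 12.7 CPM in Shox2-negative cells. Galntl6 had a difference of 1.56, with 110 and 160 against 75.6 and 267 CPM in Shox2-positive cells and 145 and 133 against 19.2 and 112 CPM in Shox2-negative cells. Runx2 had a difference of 1.03, with the values given in the report. Pcdh15 had a difference of -1.14, with 199 and 373 against 223 and 171 CPM in Shox2-positive cells and 105 and 129 against 218 and 160 CPM in Shox2-negative cells. For Cntn6 the low Shox2-positive value is that of mutant 2, and for Galntl6 the low Shox2-negative value is mostly that of mutant 1. With any 1 library left out, the difference ranged from log2 -3.27 to -2.59 for Cntn6 and from 1.19 to 2.09 for Galntl6. For Runx2 it ranged from 0.93 to 1.16 and for Pcdh15 from -1.45 to -0.87. None of the 4 genes passed by DESeq2, with a minimum of 2 Shox2 UMIs, or without cells of very high UMI count. With stricter cells 1 of the 4 passed.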

How the results depend on the processing

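Without a filter on low counts, 55 genes were called between mutants and controls, 242 against Shox2-negative cells, 572 against other mesenchyme, 398 between Foxf1 subsets, 11 for the interaction, 777 for the Foxf1 split of Shox2-negative cells and 48 for the difference of the splits. DESeq2 called 19 against Shox2-negative cells, 112 against other mesenchyme, 0 for the interaction, 313 for the Foxf1 split of Shox2-negative cells and 1 for the difference of the splits. Unmatched comparators gave 159 and 593 calls. A minimum of 2 Shox2 UMIs gave 63 calls against Shox2-negative cells, 46 of them among the 94 of the main test. It gave 226 against other mesenchyme, 63 between Foxf1 subsets and 1 for the interaction. The calls for the interaction also fell to 2 with stricter cells (1000 genes, 5% mitochondrial UMIs) and 0 without cells of very high UMI count. With 1 library left out, calls ranged from 16 to 255 for the mutants, 49 to 100 against Shox2-negative cells, 160 to 327 against other mesenchyme, 94 to 164 between Foxf1 subsets, 17 to 37 for the interaction, 332 to 552 for the split of Shox2-negative cells and 0 to 1 for the difference of the splits. The share of Shox2-positive cells then differed by -0.46 to 0.31 percentage points, and the share of cycling Shox2-positive cells by -0.63 to 9.29. As a percent of collagen-positive cells without Epcam or Cdh5, the first difference was 0.0913. The replicate block also called 0 genes between mutants and controls. Of 1758 values of single genes under alternatives, 1481 kept direction and side of the threshold, 248 no longer passed, 28 newly passed and 1, Hapln1 at log2 0.0381 without cells carrying transcripts of other types, changed sign. That alternative and the restriction to Foxf1 cells with Pax9 or Osr2, were chosen after seeing the data. The causes were not tested.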

Other observations

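Xist, the RNA that coats the inactive X chromosome of female cells, divided control 2. It had no UMI in 24 of the 97 Shox2-positive cells of that library and in 670 of its 2474 retained cells (27.1%), at a median depth of 6310.5 UMIs. In control 1, mutant 1 and mutant 2 the share of retained cells without Xist was 1.94%, 3.57% and 2.62%, and those cells had median depths of 2191, 1625 and 2362 UMIs. The 670 cells held 0 UMIs of the Y-linked genes Ddx3y, Eif2s3y, Kdm5d and Uty. Other X-linked genes took 3.34% of UMIs in cells of control 2 without Xist and 3.38% in those with it. In the Shox2-positive cells of control 2 these shares were 3.34% and 3.27%. The cause was not tested.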
